A study of Mus musculus with 11 samples.

Results

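The Skint genes examined here were Skint1 to Skint10, 10 genes chosen by name from the 52550 genes of the deposited expression table, whose Ensembl identifiers were matched to mouse symbols. All 10 passed the expression filter that left 14419 genes for testing. RNA-seq had been performed on keratinocytes (KCs) and dendritic epidermal T cells (DETCs) sorted from flank epidermis of 8-week-old female mice. LC-/- mice carried the huLangerin-DTA transgene, in which diphtheria toxin subunit A is controlled by human langerin sequence, so that Langerhans cells (LCs) are missing from birth, and WT mice were their littermates. KCs were gated as live, single MHC-II-, CD45-, langerin- and c-kit- cells, and DETCs as the CD45+ cells of otherwise the same gate, so the DETC gate held no T cell receptor stain. There were 3 WT KC libraries (W1, W2 and W3), 3 LC-/- KC libraries (L1, L2 and L3), 3 WT DETC libraries (W1, W2 and W3) and 2 LC-/- DETC libraries (L2 and L3), named in the order of the numbers in their labels.

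Skint proteins (selection and upkeep of intraepithelial T cells) are members of the immunoglobulin superfamily with an immunoglobulin-like extracellular part and several membrane-spanning segments, and they are related to the butyrophilins. Skint1 is made by thymic epithelial cells and KCs, and it is needed for the thymic selection of the progenitors of DETCs, the gamma/delta T cells that carry a nearly invariant receptor built from Tcrg-V5 and Trdv4. The roles of the other family members are less well defined. In the epidermis, DETCs sit among KCs and touch them through dendrites.

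Depth was 13491075 to 19750440 reads on genes per library. Values are normalized counts, that is reads divided by the library's size factor. Cd207, which encodes langerin, had 6.15, 26.9 and 15.6 normalized counts in WT KCs and 0 reads in all 3 LC-/- KC libraries. It had 21.8, 16.5 and 46.7 normalized counts in WT DETCs, 0 in LC-/- DETC library L2 and 4.42 (4 reads) in L3. The KC libraries had the defining KC genes at high levels, with 16 of 16 KC markers above 3 reads and sums of 620122 to 668054 normalized counts. The 14 DETC markers summed to 15.6 to 38.9 normalized counts in KC libraries, with Gzmb at 0 reads in each of them, and to 213036 to 235940 in DETC libraries. The DETC libraries also held KC transcripts, with sums of 99791 to 163314 over the same 16 KC markers. Of 8 tested LC markers limma called 3 lower in LC-/- KCs (Cd207, Cd74 and H2-Aa), and of 14 DETC markers 1 higher (Cd3g, 1 read in each WT KC library and 3 to 9 in the LC-/- KC libraries). The part of these cells in the Skint values was not tested.

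The 10 genes and Skint11 form a cluster on chromosome 4 (GRCm38, chr4:111919392-114245028, 2.33 Mb). In order they are Skint8, Skint7, Skint1, Skint4 and Skint3 on the plus strand, Skint9 on the minus strand, Skint2 on the plus strand, Skint10, Skint6 and Skint5 on the minus strand, and Skint11 on the plus strand. Skint6 and Skint5 are far longer than the rest, spanning 482 kb and 522 kb, against 15.3 kb for Skint7. The annotation places 14 other genes inside the cluster, 11 of them pseudogenes, and only Gm12816 and Gm12818 had any KC library above the floor of 3 reads, with at most 11.2 and 9.22 normalized counts. The protein-coding neighbours on either side, Slc5a9 and Trabd2b, had 51.5 to 105 and 392 to 496 normalized counts in KC libraries. In KCs the reads of the cluster thus lay on the Skint genes and hardly on the genes between them.

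The family has close pairs, and these pairs differed in level. Coding sequences were 90.5% identical between Skint7 and Skint8, 88.4% between Skint5 and Skint6, and 86.1% between Skint9 and Skint10, while the median over all 55 pairs of the 11 genes was 62.2%. Skint5 and Skint6 have the longest coding sequences, with 4425 and 3720 bases, against 957 to 1446 bases in the other genes. To show how alike the close pairs are ahead of their start sites, the RefSeq promoter windows (GRCm38.p6) of the 3 pairs are given 5′ to 3′ on the gene's strand, ending at the base before the start, with the longest run shared by both genes of a pair in capitals. Bases that GENCODE places inside Skint7 or Skint8 were left out, and their windows are chr4:111972677-111972922 and chr4:111919305-111919391, both on the plus strand.
Skint7: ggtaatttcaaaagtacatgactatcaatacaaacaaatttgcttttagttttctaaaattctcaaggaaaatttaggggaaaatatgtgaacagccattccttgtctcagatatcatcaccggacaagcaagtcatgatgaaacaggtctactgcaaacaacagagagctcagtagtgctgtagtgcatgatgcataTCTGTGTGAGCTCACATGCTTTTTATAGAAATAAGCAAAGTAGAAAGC
Skint8: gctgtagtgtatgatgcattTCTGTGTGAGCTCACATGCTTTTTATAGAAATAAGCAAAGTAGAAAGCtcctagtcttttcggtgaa
The shared run of 48 bases ends at the last base before the annotated start of Skint7 and 20 bases from that of Skint8. The windows of Skint5 (chr4:113999504-113999753) and Skint6 (chr4:113286974-113287223), both on the minus strand, were 88.8% identical over all 250 bases.
Skint5: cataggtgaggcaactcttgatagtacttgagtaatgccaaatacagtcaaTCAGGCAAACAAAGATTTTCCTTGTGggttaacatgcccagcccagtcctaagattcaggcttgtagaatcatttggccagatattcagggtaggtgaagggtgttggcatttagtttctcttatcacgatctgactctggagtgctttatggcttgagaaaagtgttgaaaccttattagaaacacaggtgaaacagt
Skint6: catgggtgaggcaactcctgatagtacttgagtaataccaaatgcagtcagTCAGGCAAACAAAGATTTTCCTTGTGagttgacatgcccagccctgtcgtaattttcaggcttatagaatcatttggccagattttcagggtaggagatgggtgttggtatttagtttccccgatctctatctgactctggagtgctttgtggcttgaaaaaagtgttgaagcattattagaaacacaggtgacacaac
The windows of Skint9 (chr4:112433986-112434235) and Skint10 (chr4:112774862-112775111), also on the minus strand, were 75.4% identical over the 207 bases that aligned. The last bases of the Skint10 window, up to chr4:112774866, lie inside the gene as GENCODE places it and were kept.
Skint9: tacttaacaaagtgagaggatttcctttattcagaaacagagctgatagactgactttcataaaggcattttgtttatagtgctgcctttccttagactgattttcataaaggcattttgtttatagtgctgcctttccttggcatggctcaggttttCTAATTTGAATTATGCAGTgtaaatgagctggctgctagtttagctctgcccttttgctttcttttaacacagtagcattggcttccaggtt
Skint10: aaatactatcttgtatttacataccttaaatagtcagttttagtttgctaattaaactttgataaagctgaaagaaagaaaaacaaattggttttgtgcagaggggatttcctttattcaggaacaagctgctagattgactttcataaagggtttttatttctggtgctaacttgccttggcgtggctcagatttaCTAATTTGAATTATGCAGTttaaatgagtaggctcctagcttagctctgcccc
Windows of 250 bases were searched on both strands for 3 motifs. TATAAA, the TATA box core, was found on either strand in 5 of the 10 genes and in 12.4% of 32851 RefSeq promoters. Only Skint1 held it on the gene's own strand, and Skint2, Skint7, Skint8 and Skint9 held it on the opposite strand alone. TTCNNNGAA, the core bound by STAT factors, was found in 1 of 10 (Skint8) and in 7.02% of promoters. TGANTCA, the AP-1 core, was found in 0 of 10 and in 6.75% of promoters. The RefSeq start of Skint2 lies 56546 bases from its GENCODE start, so its window describes the RefSeq transcript alone.

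Reads could be assigned to single family members for nearly all of their sequence. Of the 75-base windows in annotated transcripts, the read length used, 0% were shared with another gene for Skint1, Skint3, Skint4, Skint9 and Skint10, and 0.0436% for Skint2. Skint5 and Skint6 shared 1.08% and 1.28% of theirs, all with each other, and Skint7 and Skint8 shared 4.63% and 4.06%, nearly all with each other. How shared reads were counted is not given, so their effect on the values of these 4 genes is not known. It can be largest for Skint8, with a mean of 95.0 normalized counts in WT KCs against 1023 for Skint7.

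All 10 Skint genes were expressed in every WT KC library, from 88.1 normalized counts (Skint8 in W2, 95 reads) to 1166 (Skint6 in W1). Levels were compared between genes only per kb of exon, over the union of all annotated exons. On that scale WT KCs held 308 ± 58.6 normalized counts per kb of Skint9 (SD, n = 3), 276 ± 39.4 of Skint1, 268 ± 39.7 of Skint6 and 256 ± 25.0 of Skint7. The libraries of each of these 4 genes overlapped with those of its neighbour in the order, so their order was not resolved. Skint3 (201 ± 15.1 per kb) and Skint4 (171 ± 10.9) followed, each below its upper neighbour in all 3 libraries. Skint5 (79.1 ± 21.7), Skint10 (53.0 ± 7.30) and Skint2 (44.0 ± 4.03) formed a lower group whose neighbours overlapped, and Skint8 was lowest, with 20.4 ± 1.82 per kb and no overlap with Skint2. With the length of the longest transcript in place of the exon union, 5 of the 10 genes changed rank, and Skint7 came first (568 ± 55.3 per kb), ahead of Skint9 (308).

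In each close pair the 2 genes thus stood apart in level per kb: Skint7 above Skint8, Skint6 above Skint5, and Skint9 above Skint10, with no overlap between the 3 WT KC libraries of either gene. Skint8, the lowest gene of the cluster, lies next to Skint7.

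**Figure D1:**
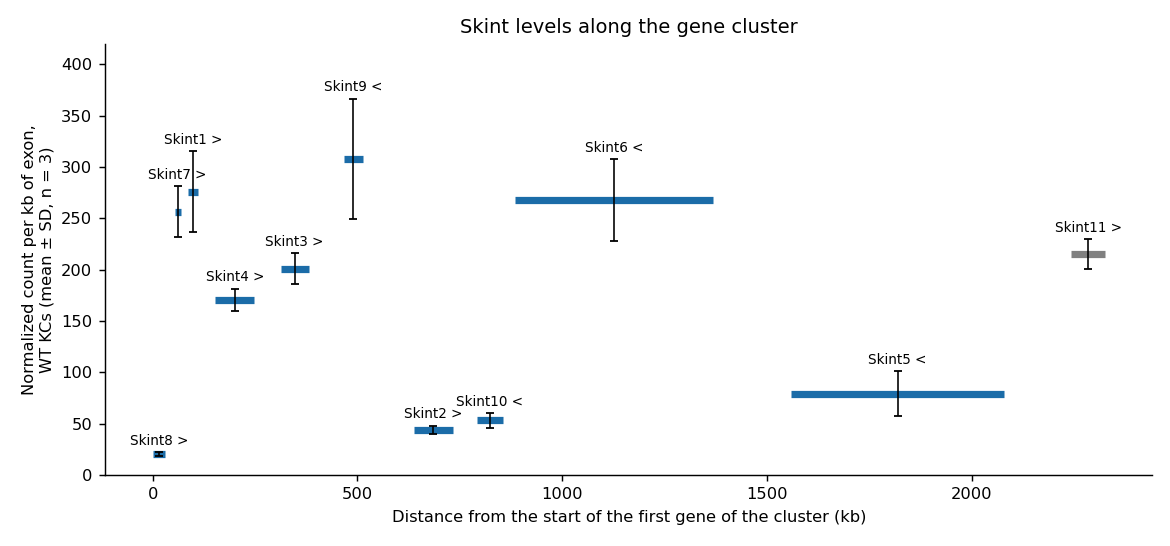
Level of each Skint gene in WT KCs (vertical axis, normalized count per kb of exon, mean ± SD of 3 libraries) against its place in the cluster (horizontal axis, distance in kb from the start of Skint8). Blue bars span the 10 genes and the grey bar Skint11, and > or < gives the strand. Skint8 (20.4 per kb) lies beside Skint7 (256 per kb), and the widest genes, Skint6 and Skint5, stand at 268 and 79.1 per kb.

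The study asked how the absence of LCs affects KCs and DETCs, and LC-/- KCs were compared with WT KCs for the Skint genes. All of them but Skint5 had a lower mean in LC-/- KCs, Skint4 being furthest from 0, and limma called none of them. These are bulk measurements, in which fewer cells of a type and less RNA per cell cannot be told apart. Fold changes are on the scale of log2(normalized count + 1), and a gene is called at a Benjamini-Hochberg adjusted p under 0.05 over all 14419 genes.

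Skint1, the member with a known role in the selection of DETC progenitors, had 950.0, 712 and 833 normalized counts in WT KCs and 717, 754 and 803 in LC-/- KCs. The groups overlapped, with the highest and the lowest library both from WT mice. The log2 fold change was -0.13 (SE 0.11, adjusted p = 0.533).

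Skint4, a plus-strand neighbour of Skint1, had 799, 709.6 and 727 normalized counts in WT KCs and 599, 427 and 559 in LC-/- KCs. All 3 LC-/- libraries lay below all 3 WT libraries, L2 being lowest. The mean fell from 745 ± 47.6 to 528 ± 90.4 (SD, n = 3 each), a log2 fold change of -0.51 (SE 0.14) with an adjusted p of 0.0953 by limma, which misses the threshold. On the reads recovered from the same values Skint4 was called lower by DESeq2 (log2 fold change -0.49, adjusted p = 0.00237) and by edgeR (-0.50, adjusted p = 0.0129). Limma called it lower too once only genes with a mean of at least 10 were tested (adjusted p = 0.0179). Without L2 its log2 fold change was -0.36 (adjusted p = 0.0639).

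Skint7 had 954, 1137 and 978 normalized counts in WT KCs and 719, 619 and 997 in LC-/- KCs. L1 and L2 were below the WT range and L3 within it. Its log2 fold change was -0.42 (SE 0.19, adjusted p = 0.238 by limma), and DESeq2 called it lower (-0.39, adjusted p = 0.0462) while edgeR did not (-0.40, adjusted p = 0.0836). Skint8, its close relative at a far lower level, had 105, 88.1 and 92.5 normalized counts in WT KCs and 85.9, 85.5 and 84.1 in LC-/- KCs. Here too all LC-/- libraries lay below all WT libraries, by less than for Skint4, with 78 to 107 reads behind each value. The log2 fold change was -0.15 (SE 0.10, adjusted p = 0.399).

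Skint6 had 1166, 1045 and 864 normalized counts in WT KCs and 893, 677 and 1049.7 in LC-/- KCs (log2 fold change -0.24, SE 0.20, adjusted p = 0.485). Skint5 had 421, 420.2 and 248 in WT KCs and 353, 334 and 432 in LC-/- KCs, and was the only member with an estimate above 0 (0.07, SE 0.24, adjusted p = 0.894). Both genes overlapped between genotypes, and the estimate of Skint5 was -0.18 without W3, its low WT library, and -0.04 without L3.

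Skint9 had 515, 381 and 372 normalized counts in WT KCs and 319, 234 and 397 in LC-/- KCs (log2 fold change -0.43, SE 0.24, adjusted p = 0.308). Skint10 had 189, 229 and 177 in WT KCs and 166, 119 and 194 in LC-/- KCs (-0.33, SE 0.21, adjusted p = 0.385). In both genes L1 and L2 were below every WT library and L3 was not.

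Skint3 had 729, 751 and 838 normalized counts in WT KCs and 733, 531 and 626 in LC-/- KCs, with L1 just above the lowest WT library (log2 fold change -0.30, SE 0.13, adjusted p = 0.219). Skint2, which is 81.3% identical to Skint3 in coding sequence, had 104, 115 and 96.0 in WT KCs and 100.3, 75.3 and 104 in LC-/- KCs (-0.18, SE 0.16, adjusted p = 0.529). Only L2 stood below the WT range of Skint2.

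**Figure D2:**
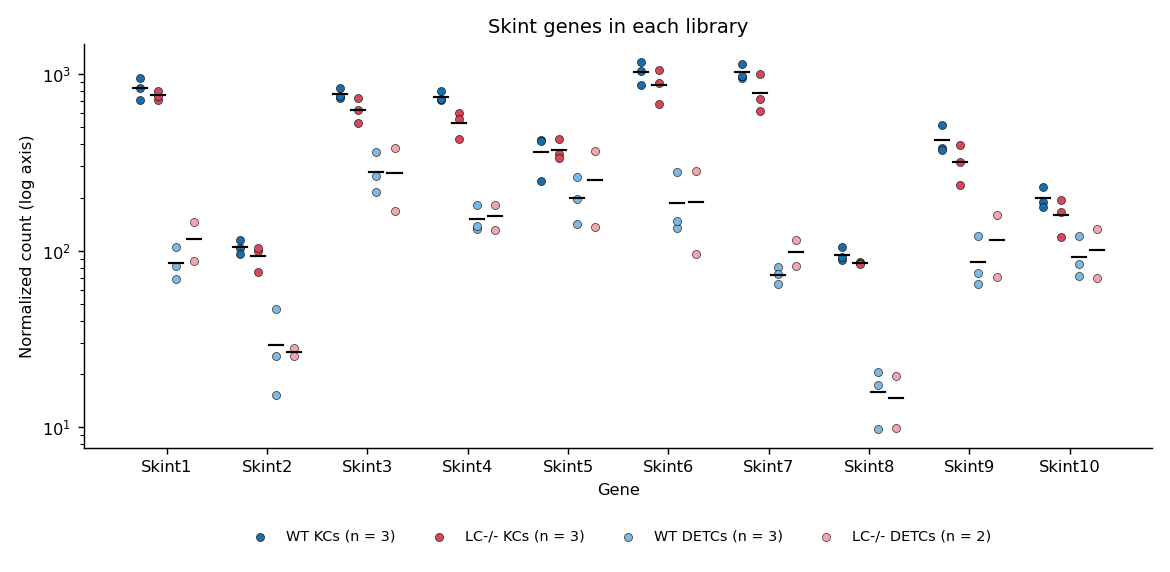
Normalized counts of the 10 Skint genes (log axis) in every library, with each point 1 library and each black bar the mean of its group. WT and LC-/- KCs overlap in 8 of 10 genes, all 3 LC-/- KC libraries lie below WT for Skint4 and Skint8, and the DETC libraries lie below the KC libraries of the same gene except in Skint5 and Skint10, where they overlap.

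Counted over the family, limma called 0 of 10 genes lower and 0 of 10 higher in LC-/- KCs, where it called 1.85% of the 14419 tested genes lower and 5.37% higher. Skint4 had the lowest unadjusted p of the members by limma (0.0137). DESeq2 called 2 of 10 lower (Skint4 and Skint7) against 3.72% of all genes, edgeR 1 of 10 (Skint4) against 4.10%, and limma with a minimum mean of 10 called 1 of 10 (Skint4) against 4.37% of 13146 genes. The estimate was below 0 for 9 of 10 members, compared with 51.8% of all tested genes, and the median was -0.27 over the members and -0.01 over all tested genes. All LC-/- libraries lay below all WT libraries for 2 of 10 members, beside 14.9% of all tested genes. In simulated KC data limma found far fewer of the changed genes than edgeR or DESeq2, so its 0 of 10 does not show that the members were equal between genotypes.

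The library L2 was the lowest of the 6 KC libraries for 7 of 10 members, and without it the median of the members' log2 fold changes was -0.14. Leaving out each of the 6 libraries in turn, the median ran from -0.35 to -0.14. The sum over the 10 genes came to 5931, 5589 and 5226 in WT KCs and to 4687, 3856 and 5247 in LC-/- KCs, with L3 just inside the WT range. As a share of all reads on genes, the sum was 0.0379% to 0.0426% in WT KCs and 0.0262% to 0.0340% in LC-/- KCs, which did not overlap. Of the 16 general KC markers 1 was called (Dsg3, higher), and 0 of 10 basal and 0 of 12 suprabasal markers were. The suprabasal markers summed to 101119 to 149684 normalized counts in WT KCs and 93875 to 136275 in LC-/- KCs, and the part of this spread in the Skint values was not tested.

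**Figure D3:**
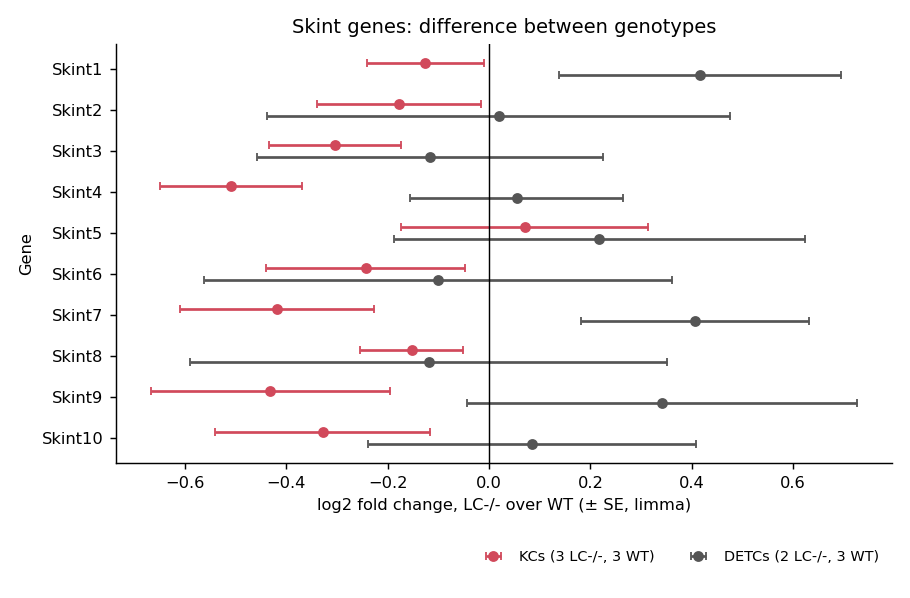
Log2 fold change of LC-/- over WT for each Skint gene, with its SE, in KCs (red) and in DETCs (grey). In KCs 9 of 10 estimates lie below 0, from -0.51 (Skint4) to -0.13 (Skint1), and Skint5 stands at 0.07, while the DETC estimates lie on both sides of 0 with SEs of 0.21 to 0.47.

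The 10 genes moved partly together among the KC libraries. Over the 6 KC libraries, 44 of the 45 pairs of members had a correlation above 0, with a median Pearson r of 0.62, a highest value of 0.98 (Skint2 with Skint10) and a lowest of -0.29 (Skint3 with Skint5). These libraries share genotype differences, and scaling errors of a library are common to all genes, so the values describe these 6 libraries alone. Pairs of other genes were not counted, so whether the members moved together more than other genes is not known. Neither Skint2 with Skint10 nor Skint3 with Skint5 is a close pair by sequence. The genes whose KC pattern was most like the mean of the members' log2 values, among 12975 genes with a mean of at least 10, were Slc36a4 (r = 0.994), Nipal2 (0.992), Ralgapa1 (0.991), Fbxo8 (0.987) and Taf13 (0.985), with Spearman rho of 0.943 to 1. They lie on chromosomes 9, 15, 12, 8 and 3. With 6 libraries, 30 genes reached a rho of 1.

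Few relatives of the Skint genes were measurable in KCs. Of 11 relatives looked at, Skint11 and Ermap passed the filter. Skint11, the last gene of the cluster, had 314, 276 and 309 normalized counts in WT KCs and 251, 170.0 and 381 in LC-/- KCs, with both the lowest and the highest library from LC-/- mice (log2 fold change -0.24, SE 0.30, adjusted p = 0.659). Ermap, an erythroid member of the butyrophilin family, had 11.0 to 25.9 normalized counts over the KC libraries. The butyrophilin genes Btnl1, Btnl2, Btnl4 and Btnl6, of which Btnl1 and Btnl6 act on intestinal gamma/delta T cells, had 0 reads in all 11 libraries.

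Among 13 genes by which KCs meet other DETC receptors, 8 were tested. Cdh1 (E-cadherin, bound by the integrin chain Itgae) rose in LC-/- KCs, from 23813, 23264 and 27585 to 38728, 38476 and 39469 normalized counts (log2 fold change 0.65, SE 0.09, adjusted p = 0.0268 by limma, 2.97e-11 to 0.107 over 17 settings). The other 7 did not pass the test: 3 of them, H60c, Ulbp1 and Ccl27a, had all LC-/- libraries below all WT libraries, as 14.9% of all tested genes did. H60c, a skin ligand of the activating receptor Klrk1 (NKG2D), had 898, 854 and 799.6 in WT KCs and 694, 503 and 596 in LC-/- KCs. Its log2 fold change was -0.52 (SE 0.13, adjusted p = 0.0746 by limma, 0.000893 by DESeq2 and 0.00858 by edgeR), close to that of Skint4. Ulbp1, another ligand of that receptor, had 47.1, 60.3 and 45.8 in WT KCs and 38.6, 24.4 and 32.6 in LC-/- KCs (-0.68, SE 0.22, adjusted p = 0.126). Its mean was far higher in DETC libraries, at 785 normalized counts in WT and 750.0 in LC-/- DETCs.

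Of 12 genes of the IL-6 family and STAT3, all tested, Stat3 (0.39, SE 0.05, adjusted p = 0.0228 by limma, 1.18e-05 to 0.140 over 17 settings) and Osmr, a receptor chain for oncostatin M (0.43, SE 0.03, adjusted p = 0.0159 by limma, 5.48e-06 to 0.0801 over 17 settings), rose in LC-/- KCs, and limma called 0 lower. The log2 fold change of Stat3 was 0.17 with quantile normalization, where the call was lost (adjusted p = 0.140). All LC-/- KC libraries also lay below all WT libraries for Socs3, an inhibitor of STAT3 signalling (-0.47, adjusted p = 0.104 by limma), and for Lifr, a receptor chain for Lif (-0.36, adjusted p = 0.0736), and both passed the test with DESeq2 (adjusted p = 0.000882 and 0.00669) and edgeR (0.0173 and 0.0203). They lay above all WT libraries, as 16.6% of all tested genes did, for Lif itself (1.13, adjusted p = 0.0514 by limma, 4.36e-05 by DESeq2 and 0.00337 by edgeR), Il10rb (0.51, adjusted p = 0.129) and Il6st, the shared receptor chain (0.19, adjusted p = 0.174), and the estimate of Il6st was -0.0095 with quantile normalization. Of 10 DETC receptor genes 0 were called in KCs, where all of them but Sema4d were at most at 10.5 normalized counts. Of these, Tcrg-C1, Jaml and Sema4d had all LC-/- KC libraries above all WT libraries. For Tcrg-C1 this rests on 0 reads in each WT KC library and 1, 1 and 4 in the LC-/- KC libraries. Jaml had 2, 1 and 0 reads in WT KCs and 3, 3 and 10 in LC-/- KCs.

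The DETC libraries held Skint transcripts at more than a trace. In WT DETCs the mean of each gene stood at 7.15% (Skint7) to 54.9% (Skint5) of its WT KC mean on the deposited scale, which was set over all 11 libraries. Skint1 stood at 10.3% ± 2.25, Skint8 at 16.8% ± 5.90, Skint6 at 18.3% ± 7.76, Skint4 at 20.2% ± 3.51 and Skint9 at 20.5% ± 7.17 (SD of the 3 DETC libraries over the KC mean). Skint2 stood at 27.9% ± 15.5, Skint3 at 36.3% ± 9.71, Skint10 at 46.7% ± 12.9 and Skint5 at 54.9% ± 16.7. This order did not follow the levels in KCs: Skint7 and Skint1, among the highest per kb in KCs, had the lowest ratios.

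KC transcripts of other kinds were also found in the DETC libraries, at ratios that differed between marker lists. The 10 basal markers stood at 14.9% to 21.5% of their WT KC means, and the 12 suprabasal markers at 9.32% (Krt1) to 171% (Lor, a late differentiation gene), with a median of 38.2%. Of the 10 Skint genes, 4 (Skint2, Skint3, Skint10 and Skint5) were above the highest of the 16 general KC markers, Krt10 at 25.9%. Skint7 was below the lowest, Krt1 at 9.32%. Whether these reads came from KCs in the DETC sort or from DETCs themselves was not tested.

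**Figure D4:**
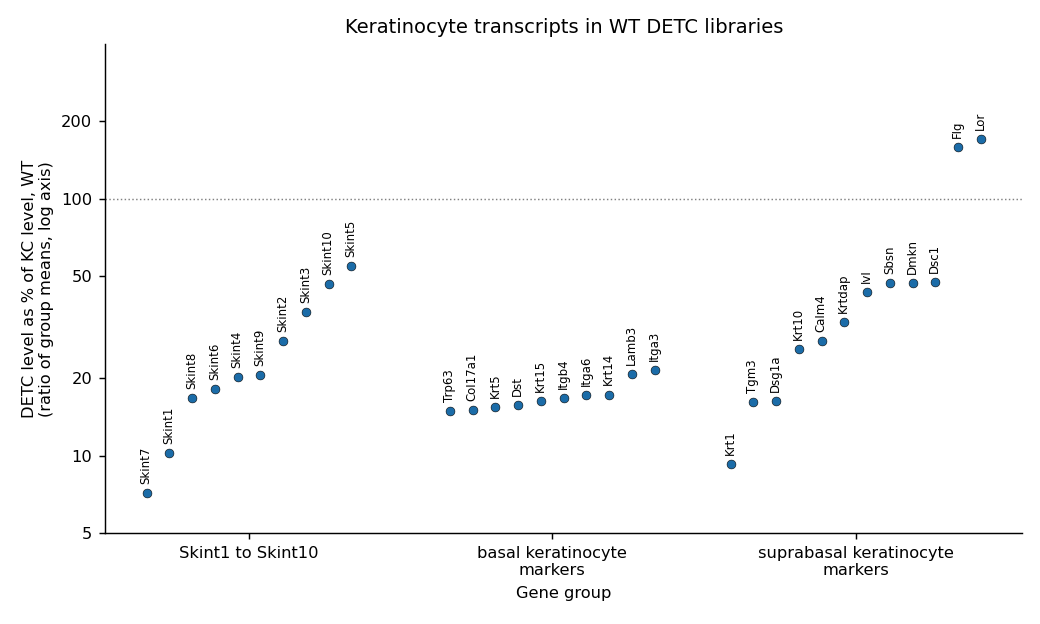
Mean level in WT DETC libraries as a percent of that in WT KC libraries (log axis) for the 10 Skint genes, 10 basal and 12 suprabasal KC markers, each point 1 gene. The Skint genes run from 7.15% to 54.9%, wider than the basal markers (14.9% to 21.5%). All but Skint7 lie inside the range of the suprabasal markers (9.32% to 171%), where Flg and Lor lie above the dotted line of equal levels.

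LC-/- and WT DETCs were compared for the same 10 genes, and limma called none of them. Skint1 had 68.7, 106 and 81.7 normalized counts in WT DETCs and 145 and 87.3 in LC-/- DETCs (log2 fold change 0.42, SE 0.28, adjusted p = 0.470). Skint7 had 80.8, 73.4 and 65.2 in WT DETCs and 115 and 81.8 in LC-/- DETCs. It was the only member whose LC-/- DETC libraries both lay above all WT libraries, as 21.3% of all tested genes did, and its log2 fold change was 0.41 (SE 0.22, adjusted p = 0.374).

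Skint3 had 216, 363 and 264 normalized counts in WT DETCs and 381 and 168 in LC-/- DETCs, so the highest and the lowest library were both LC-/-. Skint5 had 141, 262 and 195 in WT DETCs and 368 and 137 in LC-/- DETCs, where the value of L2 equalled 98.7% of the LC-/- KC mean. The same split of L2 from L3 was seen for Skint6 (135, 279 and 148 in WT, 284 and 96.2 in LC-/-). Skint9 had 64.4, 121 and 74.9 in WT DETCs and 159 and 70.8 in LC-/- DETCs, and Skint10 had 72.0, 121 and 84.6 against 132 and 69.7. Skint4 had 133, 181 and 138 in WT DETCs and 183 and 132 in LC-/- DETCs. The least expressed members, Skint2 (15.3, 47.0 and 25.3 against 28.2 and 25.4) and Skint8 (17.5, 20.6 and 9.72 against 19.4 and 9.95), rest on 9 to 57 reads per DETC library.

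Limma called 0 of 10 members in DETCs, beside 3.13% of all tested genes called higher and 0.430% called lower. Its lowest unadjusted p among the members was 0.109 (Skint7). DESeq2 and edgeR also called 0, and DESeq2 gave no adjusted p for Skint2 and Skint8. The median log2 fold change of the members was 0.07, and it was -0.31 without L2, 0.59 without L3, -0.03 without W1, 0.35 without W2 and 0.02 without W3, so its sign rests on single libraries.  L2 was the highest DETC library for 8 of 10 members and W2 for the other 2, and L2 and W2 were the 2 highest libraries for 9 of 10, Skint7 being the exception.

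The suprabasal markers had the same high libraries. Their sums in DETCs were 24704, 49774 and 28086 normalized counts in W1, W2 and W3 and 51243 and 19086 in L2 and L3. The Skint sums were 944, 1574, 1086, 1813 and 878 in the same order. Basal markers did not set W2 apart, with 64287, 57855, 74555, 91269 and 68939. Among the KC libraries, W1, W2, L3, W3 and L1 stood in this order, from high to low, by both sums. L2 was apart, with the lowest Skint sum and a suprabasal sum below that of W1 alone. The part of suprabasal transcripts in the Skint values of DETC libraries was not tested.

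**Figure D5:**
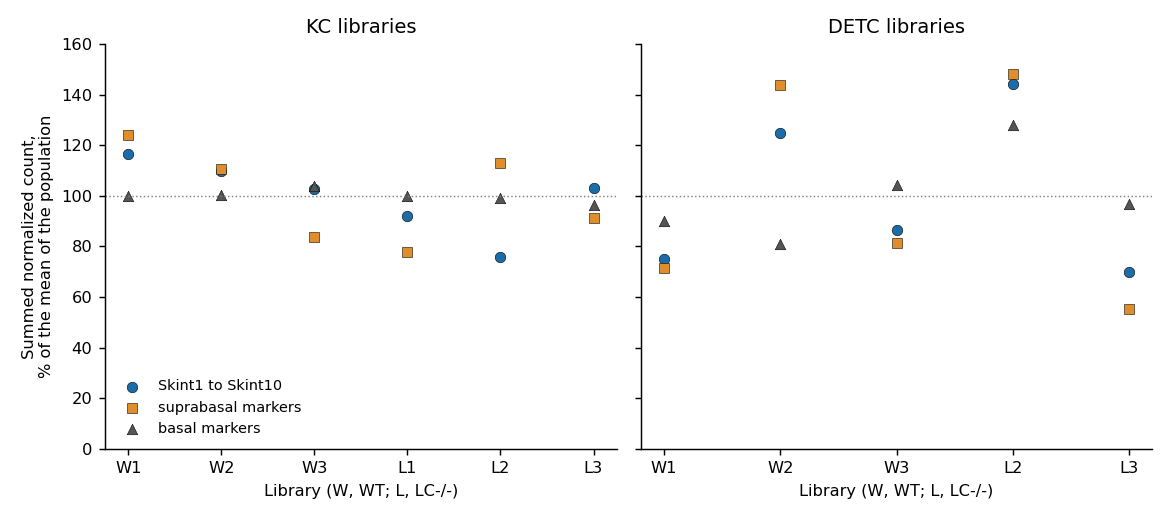
Summed normalized counts of the 10 Skint genes (circles), 12 suprabasal markers (squares) and 10 basal markers (triangles) in each library, as a percent of the mean of the libraries of that population. In DETCs the Skint sum is 125% in W2 and 144% in L2, where the suprabasal sum is 144% and 148%, and in KCs the Skint sum is lowest in L2 (75.8%), where the suprabasal sum is 113%.

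An interaction term over all 11 libraries tested whether the 2 cell populations differed in the effect of genotype. It called 0 of 10 members, beside 0.617% of all tested genes called with a higher and 0.180% with a lower fold change in DETCs than in KCs. DESeq2 and edgeR called 0 of 10 as well. All 10 estimates were above 0, while 43.4% of all tested genes were below 0. An estimate above 0 means a higher log2 fold change of LC-/- over WT in DETCs than in KCs. Skint7 (0.82, SE 0.26, adjusted p = 0.235) and Skint4 (0.56, SE 0.24, adjusted p = 0.411) had the lowest unadjusted p of the members by limma. The median estimate was 0.31 over the members and 0.05 over all tested genes. The median over the members was 0.04 without the DETC library L2 and 0.86 without the DETC library L3.

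The counterparts of these genes on DETCs were measured in the same libraries. Of 10 DETC receptor genes, Trdv4, the delta chain segment of the DETC receptor, fell in LC-/- DETCs, from 11432, 7749.6 and 10270.0 to 5387 and 4115 normalized counts (log2 fold change -1.04, SE 0.18, adjusted p = 0.0279 by limma, 7.25e-07 to 0.464 over 16 settings), and 0 rose. The libraries of Tcrg-V5, Tcrg-C1, Trdc, Jaml and Ccr10 did not overlap either, all LC-/- DETC libraries being lower, as in 16.5% of all tested genes. Those of Klrk1 and Il2rb were all higher, as in 21.3% of all tested genes. Tcrg-V5, the partner of Trdv4, had a log2 fold change of -0.59 (adjusted p = 0.0910). Of the 8 tested KC partners 0 were called in DETC libraries, where the LC-/- libraries were all higher for Cxadr and Cdh1 and all lower for H60c, and of the 12 IL-6 family and STAT3 genes 1 rose (Stat3, 0.75, SE 0.10, adjusted p = 0.0168 by limma, 4.62e-09 to 0.179 over 16 settings). The LC-/- DETC libraries were also all higher for Socs3, Il6, Osmr and Bcl3 and all lower for Il6st and Osm. Over all tested genes they were all higher in 21.3% and all lower in 16.5%.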

How the data were processed

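Poly-A RNA of sorted cells had been sequenced as paired 75-base reads. Per the study's methods, the authors used cutadapt for trimming, hisat2 for alignment to GRCm38 and featureCounts for counting, and versions, strand setting and treatment of multi-mapping reads are not given in the sources used here. The deposited table holds 1 signal value per gene and library, which is the read count over a median-of-ratios size factor, neither logged nor filtered. Multiplied back by these factors, 100% of values came out as whole reads (tolerance 0.01, largest deviation 0.00118), and these reads were used wherever counts were needed.

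The 10 genes and all gene lists were chosen with earlier results of these data known. Gene symbols came from GENCODE mouse release 21 (GRCm38), which matched 52403 of 52550 identifiers, and promoters from RefSeq (GRCm38.p6), which matched all 11 Skint genes. Genes with a CPM over 1 in 2 or more libraries were kept, the rule the study states, which left 14419 of the genes in the deposited table, a number that differs from the study's own. The test of genotype was limma 3.58.1 (R 4.3.3, eBayes with trend) on log2(value + 1) in the libraries of 1 population, and all libraries entered the interaction test, each with Benjamini-Hochberg adjustment. The recovered reads were tested with edgeR 4.0.16 and DESeq2 1.42.0. Scripts were tested on simulated counts, where limma recovered far fewer of the changed genes in the KC comparison than edgeR or DESeq2 did, and about as many in the other comparisons. Named genes were the 10 members, genes of the 4 pathway lists that were called, did not overlap between genotypes or had a role that was needed, the neighbours of the cluster, the 5 genes most like the members in KCs, and Cd207. Alternatives were pseudocounts of 0.5 and 8, no filter, a minimum mean of 10, quantile normalization, no trend, size factors within a population, 1 fit over 11 libraries, a replicate block and omission of each library. Levels of KCs and DETCs were described and not tested, because the choice of genes referred to them. Libraries of a group carry distinct numbers. The study's legend describes each dot of its principal component plot as a separate animal and does not mention the numbers.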

Additional observations from a re-analysis of the deposited data

Results flagged for a closer look

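Among the list genes named with the Skint family, Socs3, a feedback inhibitor induced through STAT3, was singled out because its difference between genotypes itself differed between KCs and DETCs in the interaction test. It had 9871, 10435 and 9202 normalized counts in WT KCs and 6296, 8614 and 6522 in LC-/- KCs, and 6939, 7739.7 and 7176 in WT DETCs and 9659.7 and 9010.1 in LC-/- DETCs. All LC-/- libraries were lower in KCs and higher in DETCs, and the log2 fold change in DETCs minus that in KCs was 0.83 (SE 0.17, adjusted p = 0.0473 by limma). It was past the threshold in 5 of 20 other settings, with adjusted p from 0.000549 to 0.156 over all of them. No Skint gene met this condition. Groups of 2 and 3 libraries are too small for a test of outlying libraries.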

How the results depend on the processing

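Limma called 0 of 10 Skint genes in KCs, and this count was 1 with a minimum mean of 10 (Skint4), 2 with DESeq2 (Skint4 and Skint7) and 1 with edgeR (Skint4). It was 0 in the other 13 alternatives in KCs, in all 15 in DETCs and in all 20 for the interaction. All 10 genes but Skint5 kept a KC estimate below 0 in all 16 alternatives. Leaving out each library in turn, the KC estimate of Skint5 ran from -0.18 to 0.20 on the log2 scale.

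In DETCs, where the groups held 3 and 2 libraries, the sign of 8 genes turned when a library was left out. Their log2 fold changes ran from -0.36 to 0.42 (Skint2), -0.70 to 0.47 (Skint3), -0.18 to 0.29 (Skint4), -0.49 to 0.93 (Skint5), -0.88 to 0.67 (Skint6), -0.57 to 0.33 (Skint8), -0.24 to 0.92 (Skint9) and -0.37 to 0.54 (Skint10). Skint2 also turned with a pseudocount of 8 (-0.0070), DESeq2 (-0.16), edgeR (-0.19) and size factors within the population (-0.0057). For the interaction the estimates ran from -0.18 to 0.60 (Skint2), -0.40 to 0.77 (Skint3), -0.56 to 0.86 (Skint5), -0.63 to 0.92 (Skint6), -0.42 to 0.48 (Skint8) and -0.044 to 0.87 (Skint10), and turned with edgeR for Skint2 (-0.0187) and with quantile normalization for Skint8 (-0.0859). With quantile normalization the KC estimate of Il6st turned too (-0.0095) and that of Stat3 was 0.17. The causes were not tested. A lone library left in a group was assumed to vary like the others.

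KC and DETC libraries share numbers, and the labels do not state whether a shared number marks 1 mouse. Over 14039 genes the deviations of same-numbered libraries correlated at -0.0586 (W1), 0.0736 (W2), 0.120 (W3), 0.156 (L2) and 0.128 (L3). Differently numbered libraries were not compared, so these values cannot decide whether the numbers mark pairs. The number was therefore a block in an alternative only. With the number as a replicate block the interaction called 18 genes (17 higher, 1 lower) in place of 115, and 0 Skint genes. Depth limits Skint2 and Skint8 most, at 9 to 57 reads per DETC library.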
